A study of Mus musculus with 2 samples.

Results

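The genes described here are 7 transcription factor genes of 3 families: the Iroquois genes Irx3, Irx4 and Irx5, the COUP-TF genes Nr2f1 and Nr2f2, and the Mef2 genes Mef2a and Mef2c. Their ISL1 binding peaks were taken from a list of 1483 peaks as those peaks whose nearest transcription start site (TSS) belonged to 1 of the 7 genes, at any distance. The rule gave 7 peaks, listed under 5 of the 7 genes. Nr2f1 and Nr2f2 had 2 peaks each, Irx3, Irx4 and Mef2c had 1 each, and no peak was listed under Irx5 or Mef2a. The peaks were thus chosen by the deposited peak calls and their nearest genes in this same library, so the positions, scores and distances below are a description and were not tested.

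The LIM-homeodomain protein ISL1 is a transcription factor found in pacemaker cells of the sinoatrial node, where the heartbeat starts. The chromatin came from sinoatrial node cells of Hcn4-H2BGFP mice on the ICR background at postnatal day 1 to 3, sorted for the GFP of a nuclear reporter named for Hcn4, the pacemaker channel gene. The series held 2 libraries, an ISL1 immunoprecipitate and an input DNA library from the same kind of cells, and the values below come from the peaks of the first of them. Neither a replicate nor a second condition exists, how many animals were pooled is not given in the labels, and a peak list holds no expression levels with which to check the sorted cells against markers.

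Iroquois proteins are homeodomain factors of the TALE class, and their genes sit in 2 clusters, one with Irx1, Irx2 and Irx4 and the other with Irx3, Irx5 and Irx6. In the heart Irx4 is known as a ventricular gene, Irx3 as a gene of the ventricular conduction system and Irx5 as a repressor of the potassium channel gene Kcnd2 across the ventricular wall. COUP-TF proteins are orphan nuclear receptors; Nr2f2 is known for its part in atrial identity, and its close relative Nr2f1 is expressed in atrial cells too. MEF2 proteins are MADS-box factors that switch on contractile genes of muscle, Mef2c in the early heart and Mef2a mainly after birth. Genes of developmental regulators such as these often lie beside long stretches without other genes, where distant enhancers are found.

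A peak score is the authors' own number for a peak's height. Scores of the list ran from 8.21 to 84.8 with a median of 15.1 and quartiles of 12.3 and 17.8. To 3 digits each one was a whole number of equal steps of about 1.37, a step size that is itself rounded. If 1 step stands for 1 tag, which the files do not state, an exact Poisson 95% interval can be set around each score, and it covers counting error only. The focus ratio, a fraction, is the peak caller's measure of how well the tags sit around the peak centre, and its median over the list was 0.739. Every peak spanned 144 bp from start to end. All coordinates are those of the mouse build mm9.

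The 7 peaks lay far from the genes they were listed under. These genes were chosen with their distal peaks known, so the shares below describe that choice and were not tested. Their distances ran from 100 to 1244 kb with a median of 149 kb, against a median of 83.4 kb (quartiles 30.2 and 198) over all 1483 peaks. All 7 were beyond 100 kb, where 44.6% of all peaks lay, though the Mef2c peak lay only just past that limit. Beyond 500 kb were 3 of the 7, where 7.42% of all peaks lay. Counted by gene, the closest peak was beyond 100 kb for 5 of the 5 genes with a peak, against 32.7% of the 1003 genes that had any peak. The peaks were intergenic in 6 of 7 cases (85.7%), where 53.8% of all peaks were. Upstream of the TSS lay 6 of the 7, where 41.2% of all peaks did, and the 1 downstream peak was the intronic one of Mef2c. None of the 7 lay on an annotated repeat, where 7.82% of all peaks did (116 of 1483). With so low a share, its absence among 7 peaks says little.

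**Figure D1:**
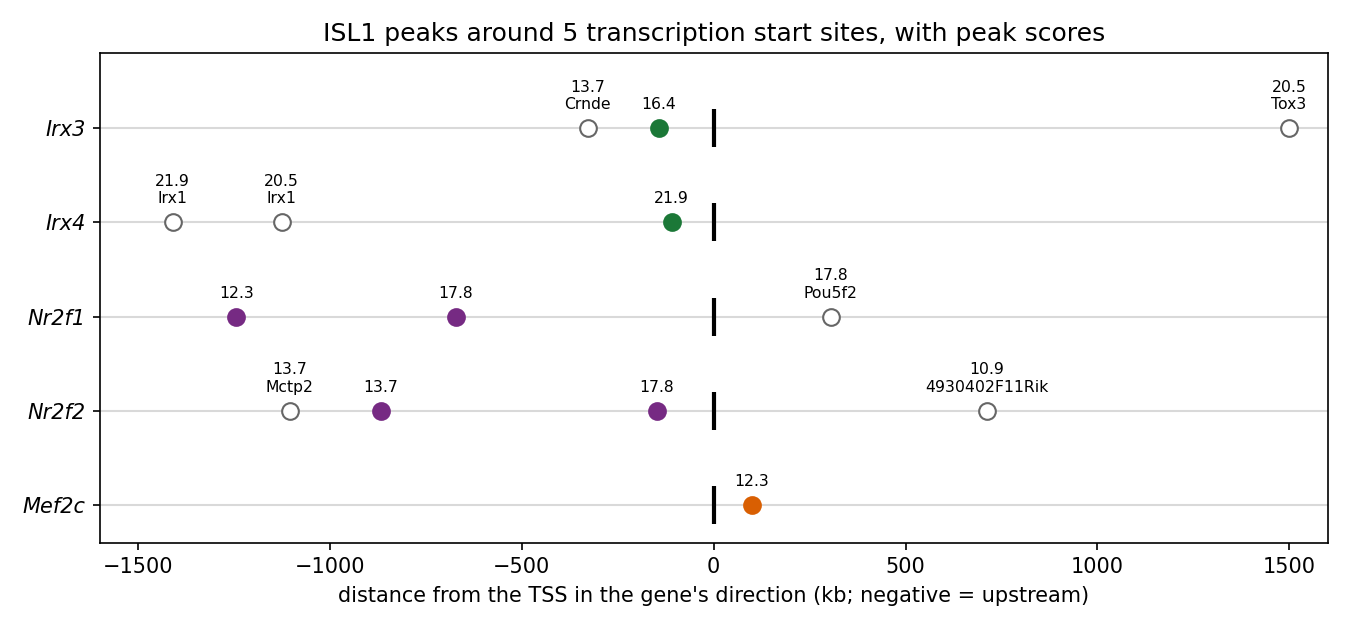
Each row is centred on the TSS of a gene with a listed peak, drawn as a black bar, and the x axis gives the distance from it in kb in the direction of the gene (negative is upstream). Filled points are peaks listed under that gene, open points are other peaks within 1500 kb with the gene they were listed under, and the number is the peak score; 6 of the 7 filled points lie upstream, and none lies within 100 kb of its TSS.

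By score the 7 peaks were ordinary members of the list. Their scores ran from 12.3 to 21.9 with a median of 16.4, which is 1 step above the median of the whole list and 1 step above that of the 455 intergenic peaks beyond 100 kb (15.1). At or above the 75th percentile of the list (17.8) stood 3 of the 7, where 29.4% of all peaks stood. If 1 step is 1 tag, the interval of the lowest of the 7 scores (5.63 to 23.4) held the highest of them (21.9). On that assumption the order of the 7 peaks is not resolved. Their focus ratios ran from 0.6 to 0.857 with a median of 0.688, against 0.727 for the intergenic peaks beyond 100 kb.

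**Figure D2:**
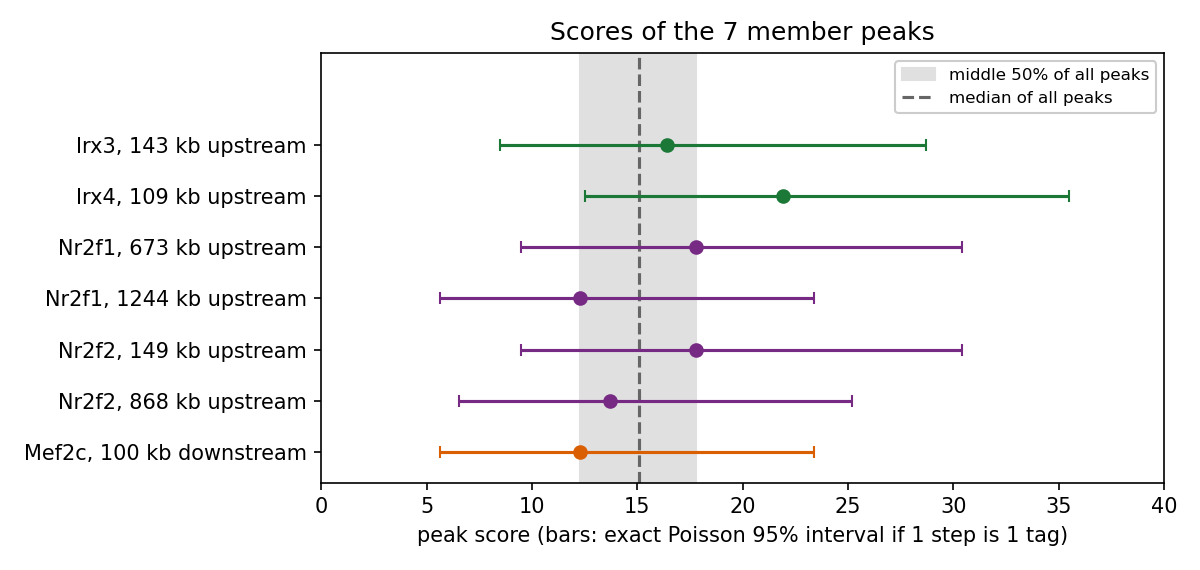
Points are the scores of the 7 peaks, bars their exact Poisson 95% intervals if 1 step is 1 tag, the dashed line the median of all 1483 peaks (15.1) and the grey band their middle 50% (12.3 to 17.8). All 7 bars overlap one another, and the dashed line crosses each of them.

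Irx4 (Entrez 50916) had the highest score of the 7. Its peak lay at chromosome 13, 73288610 to 73288754, in intergenic sequence 109 kb upstream of the TSS. The score was 21.9 (12.5 to 35.5), above that of 86.3% of the peaks in the list, and the focus ratio was 0.68. Irx4 is transcribed towards higher coordinates, so its upstream side faces Irx2 and Irx1 in the gene order of the RefSeq table. No peak was listed under Irx2, nor under any of the 5 genes on the other side of Irx4 (Ndufs6, Mrpl36, Eprn, Lpcat1 and Slc6a3). Of all RefSeq genes with a curated transcript, 3.82% had a peak.

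Irx1, a gene of that cluster outside the 7, was nearest to 2 peaks. One lay 114 kb downstream of its TSS at chromosome 13, 71987490 to 71987634, with a score of 21.9. The other lay 171 kb upstream at 72271784 to 72271928, with a score of 20.5. Both were intergenic. The 2 Irx1 peaks and the Irx4 peak followed one another on the chromosome with no other peak between them, over 1301 kb. All 3 scores stood above the 75th percentile of the list. From the outer 2 of these 3 peaks the next peak was 0.743 Mb away on the Irx1 side and 4.74 Mb away on the Irx4 side. Irx1 and this run of peaks were singled out after their values were seen.

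Irx3 (Entrez 16373), in the other Iroquois cluster, had 1 intergenic peak at chromosome 8, 94468431 to 94468575, 143 kb upstream of its TSS. Its score was 16.4 (8.48 to 28.7), above that of 61.8% of the list, and its focus ratio was 0.789. Irx3 is transcribed towards lower coordinates, so this peak lay on the side of Irx5 and away from Fto, the gene on the other side of Irx3 in the RefSeq order. No peak was listed under Fto, Rpgrip1l, Mmp2 or Lpcat2, which flank the cluster, or under Irx6.

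No peak was listed under Irx5, and 1 was listed under its neighbour. In the RefSeq order Irx5 is directly next to Crnde, a long noncoding RNA gene that lies between it and Irx3. A peak at chromosome 8, 94653752 to 94653896, was listed under Crnde, 226 kb from the Crnde TSS and 328 kb from that of Irx3. It was intergenic, with a score of 13.7 and a focus ratio of 0.833. The Irx3 and Crnde starts were 554 kb apart, and the 2 peaks listed under them, 185 kb apart, were the only peaks between them. The next peaks lay 1.64 Mb away on the Irx3 side, in intron 1 of Tox3, and 4.24 Mb away on the other side. How far the Crnde peak lies from Irx5 was not measured, as the TSS of Irx5 could not be placed in mm9 without a peak of its own.

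**Figure D3:**
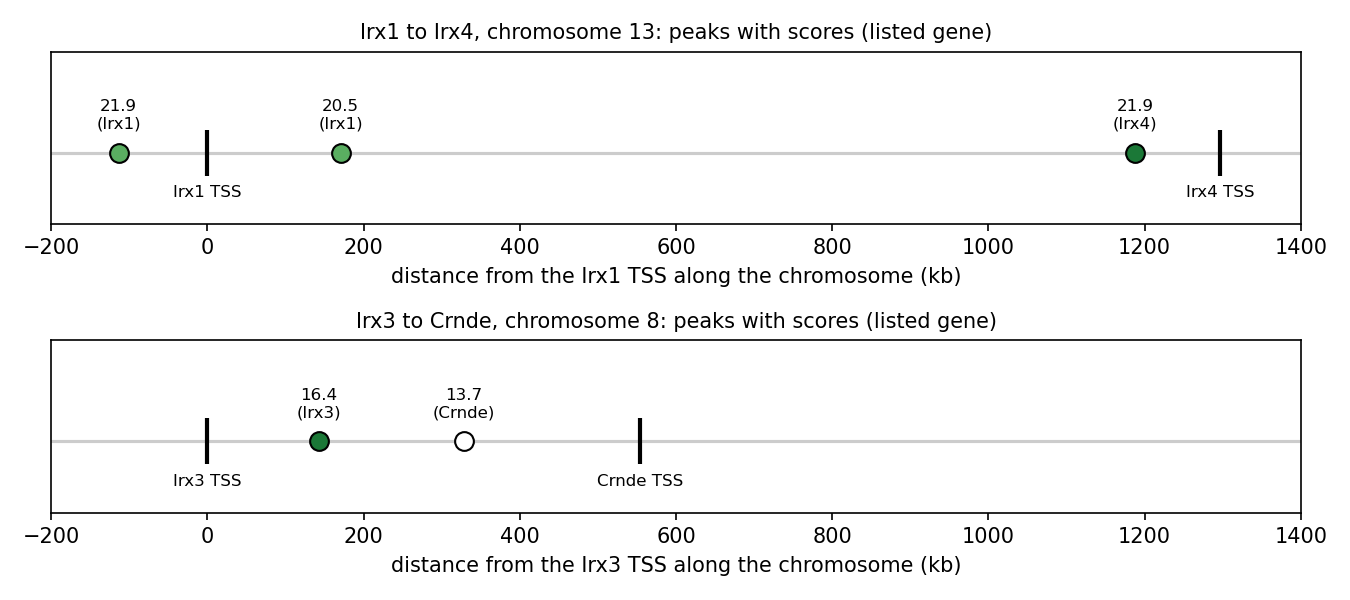
Points are the peaks of the 2 Iroquois clusters with their scores and, in brackets, the gene they were listed under, black bars are TSSs, and both x axes give the distance in kb along the chromosome on the same scale. The 3 peaks of the Irx1 to Irx4 stretch have scores of 20.5 to 21.9, and the 2 peaks between Irx3 and Crnde have 16.4 and 13.7.

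Nr2f1 (Entrez 13865) stood apart by distance, with both peaks beyond 500 kb. Its closer peak lay 673 kb upstream of the TSS at chromosome 13, 79010812 to 79010956. That peak had a score of 17.8 (9.47 to 30.4) and a focus ratio of 0.643. Its second peak lay 1244 kb upstream at 79582329 to 79582473, with a score of 12.3 (5.63 to 23.4) and a focus ratio of 0.6, the lowest of the 7. The second peak ranked 15 of 1483 by distance, and it was the 1 member peak beyond 1 Mb, where 2.02% of all peaks lay. By the distance of its closest peak Nr2f1 ranked 19 of 1003 genes, with 3.29% of those genes having their closest peak beyond 500 kb.

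Both Nr2f1 peaks were intergenic, 572 kb apart with no other peak between them. They lay on the upstream side, towards Arrdc3, the next protein-coding gene in the RefSeq order, under which no peak was listed. The peak closest to the Nr2f1 TSS was listed under another gene. It lay 305 kb downstream of Nr2f1 at chromosome 13, 78033244 to 78033388, inside intron 6 of Fam172a, and was listed under Pou5f2 at 131 kb. Its score of 17.8 equalled that of the closer Nr2f1 peak.

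Nr2f2 (Entrez 11819) had 1 peak 149 kb upstream of its TSS at chromosome 7, 77660462 to 77660606. Its score was 17.8 (9.47 to 30.4) and its focus ratio 0.737. A second intergenic peak lay 868 kb upstream at 78379197 to 78379341, with a score of 13.7 (6.56 to 25.2) and a focus ratio of 0.688. The pair was 719 kb apart with no other peak between them. Another intergenic peak followed 0.237 Mb further on, at chromosome 7, 78616568 to 78616712, with a score of 13.7. It was listed under Mctp2, 835 kb from that gene's TSS, and lay 1105 kb from the TSS of Nr2f2. The starts of Nr2f2 and Mctp2 were 1.94 Mb apart and held these 3 peaks between them.

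The Nr2f1 and Nr2f2 peaks were alike in annotation and side, though not in distance (closest peaks at 673 and 149 kb). This is a description of genes chosen with their distal peaks known, and how many other genes share it was not counted. Each gene had 2 intergenic peaks, both upstream. In each gene the closer peak had the score of 17.8 and the farther one a lower score (12.3 and 13.7), though the intervals of the 2 scores overlapped in both genes. Having 2 or more peaks was found for 27.4% of the genes with any peak. None of the 7 peaks had another peak of the same gene within 50 kb, where 27.7% of all peaks did. For Irx3, Irx4 and Mef2c, with 1 peak each, this was fixed in advance. Only the peaks of Nr2f1 and Nr2f2 can be set beside the 755 peaks of genes with 2 or more, of which 54.4% had such a neighbour.

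Mef2c (Entrez 17260) had the only intragenic peak of the 7. It lay in intron 4 of 10 at chromosome 13, 83743272 to 83743416, 100 kb downstream of the TSS counted as nearest. Its score was 12.3 (5.63 to 23.4), above that of 17.3% of the list. Its focus ratio of 0.857 was the highest of the 7. It was an isolated peak, with the next peaks 2.5 Mb away towards lower coordinates and 2.22 Mb away towards higher ones. The RefSeq table gives Mef2c several promoters, so the distance holds for the transcript used in the deposited annotation.

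Mef2a (Entrez 17258) had no peak. Nor did any of the 4 nearest genes on either side of it in the RefSeq order, where 3.82% of all RefSeq genes with a curated transcript had one. The fifth gene on one side, Igf1r, the receptor gene for insulin-like growth factor 1, was nearest to a peak, with a highest score of 10.9. A gene without a listed peak is not shown to be unbound, since a weaker site would not appear in a list whose lowest score is 6 steps.

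**Figure D4:**
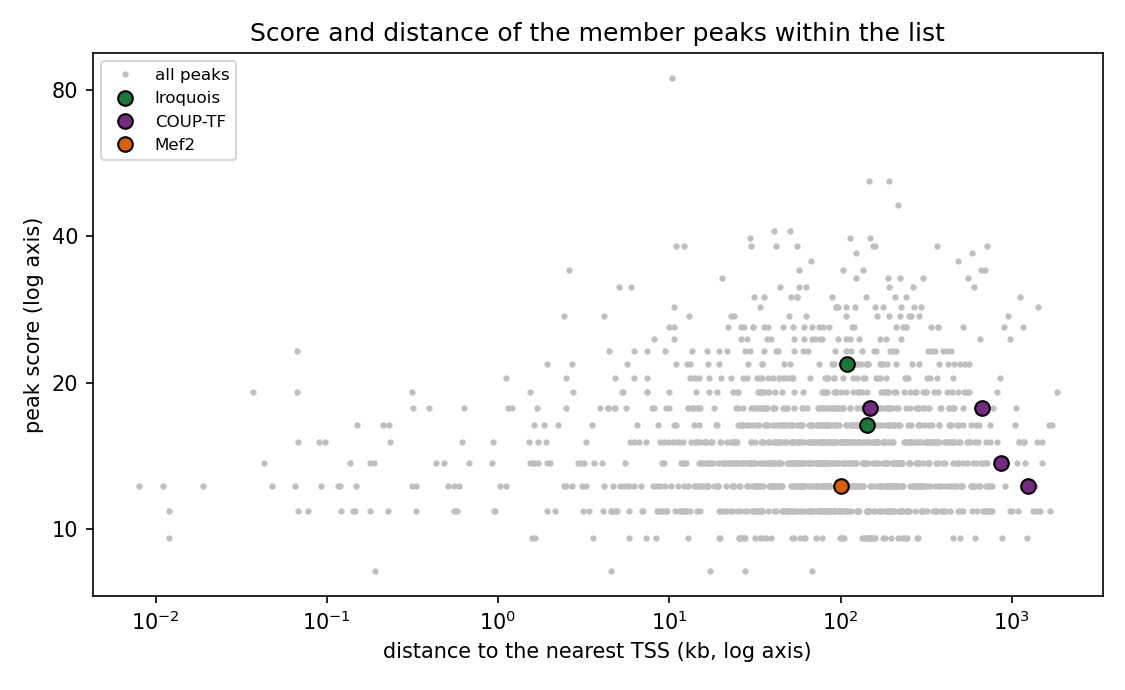
Grey points are all 1483 peaks, with the distance to the nearest TSS in kb on the x axis and the peak score on the y axis, both log axes; coloured points are the 7 peaks by family. The 7 lie at 100 to 1244 kb and at scores of 12.3 to 21.9, within the cloud of the other peaks at like distances.

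Around each of the 5 genes the number of peaks was at or below the median for genes with a peak, and within the quartiles. Within 500 kb of the TSS, counting peaks listed under any gene, there were 2 around Irx3 and 1 each around Irx4, Nr2f1, Nr2f2 and Mef2c. The median over the 810 genes with a peak whose TSS could be placed was 2 (quartiles 1 and 3). Within 1 Mb there were 3 around Nr2f2, 2 each around Irx3 and Nr2f1 and 1 each around Irx4 and Mef2c, with a median of 3 over the 810 genes (quartiles 1 and 4).

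Relatives, partners and downstream genes of the 3 families, with 4 genes beside the Irx3 to Irx5 cluster, were looked up as a list of 37 genes. A peak at any distance was listed under 5 of them (13.5%), against 3.82% of the 26220 RefSeq genes with a curated transcript. Within 100 kb there were 3 (8.11%), against 2.57%. The list was chosen with earlier results of these data known, so the difference between these shares was not tested. The 26220 genes also hold noncoding RNA genes, and gene length and the space around genes were not taken into account. Among the relatives, Irx1 had peaks, and Irx2, Irx6, Nr2f6, Mef2b and Mef2d had none.

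Of the 8 genes grouped here as COUP-TF partners 2 had a peak, both within 100 kb. Whether the product of each gene in the group binds COUP-TF proteins was not checked. Zfpm1, which encodes a FOG cofactor of GATA proteins, had an intergenic peak 1.71 kb upstream of its TSS at chromosome 8, 124804256 to 124804400, with a score of 13.7. Bcl11a, a zinc finger gene whose product was found as a COUP-TF interacting protein, had a peak of score 13.7 in intron 2, 19.3 kb from the TSS (chromosome 11, 23999969 to 24000113). Both lay closer to their genes than any of the 7 peaks did to theirs, and their score was below the list's median.

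Of the 11 MEF2 partners and regulators 2 had a peak. Hdac4, a class IIa histone deacetylase gene whose product represses MEF2, had a peak of score 10.9 in intron 1, 64.4 kb from the TSS (chromosome 1, 93980482 to 93980626). Tbx5, a T-box gene of the atria and conduction system, had an intergenic peak of score 16.4 at 129 kb downstream. That peak lay on an annotated LINE repeat, and without peaks on repeats 1 of the 11 and 4 of the 37 genes had a peak. No peak was listed under Hdac5, Hdac7, Hdac9, Myocd, Mapk7, Mapk14, Hand2, Gata4 or Nkx2-5. None of the 8 genes described as downstream of Iroquois or COUP-TF factors in the heart had a peak. Among them were the connexin genes Gja5 and Gja1 and the potassium channel gene Kcnd2. Only 3.82% of all RefSeq genes with a curated transcript had a peak, so these absences are the usual case.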

How the data were processed

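Chromatin of sorted sinoatrial node cells was crosslinked with 2 mM disuccinimidyl glutarate and 1% formaldehyde, sheared to fragments of 100 to 400 bp and precipitated with 5 µg of antibody to ISL1, per the labels' protocols. Because the first agent joins proteins to each other, ISL1 held on chromatin by a partner can give a peak too. Bowtie, HOMER and mm9 are named in the submitters' processing notes. Per the file headers, HOMER annotated the peaks on mm9 from a peak table named for the input. For versions, caller settings, duplicate filter and use of the input, the labels and headers used here give nothing. The deposited peak score is the authors' value per peak, and the deposited focus ratio is a fraction. Annotation and distance to the TSS are as deposited. Total reads are not known here.

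Peaks were selected by nearest gene with Python 3.11.15 and pandas 2.3.3, and intervals came from scipy 1.17.1 at the 95% level. The TSS of a gene was placed in mm9 from a peak's centre, its deposited distance and the gene's strand. The strand was taken from peaks sharing a TSS or from a RefSeq table of another build, GRCm38.p6. For 264 transcripts with 2 or more peaks, the peaks placed the TSS at 1 position to within 1 bp on a single strand in all 264, which was the table's strand in the 201 cases where the table gave one. That build served otherwise for names (1002 of 1003 matched), gene order, host genes of introns and the set of 26220 genes with a curated transcript. No distance was measured in it. Finding the score step and placing a TSS were tested on simulated data first, and the other calculations were not. The members, the list of 37 genes and the alternatives were chosen with earlier results of these data known. The list first held 2 further genes, which are not reported here and are in none of its counts, so its shares hold for the 37 genes only. Named genes were the 7 genes, the host genes of their peaks, list genes with a peak and the genes of other peaks near a member TSS. Other genes of the order, and those without a peak, were named to complete a count. No peak sequence is printed, as no mm9 genome was used here.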

Additional observations from a re-analysis of the deposited data

How the results depend on the processing

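All values rest on 1 library and cover no variation between animals. With peaks at or above the list's median score only, 4 of the 7 peaks were left, and at or above the 75th percentile 3 peaks of 3 genes (Irx4, Nr2f1 and Nr2f2). In both cases 100% of those left were intergenic, since the Mef2c peak was dropped. Within 100 kb of the TSS there were 0 peaks and 0 genes, the Mef2c peak lying just past that limit, and within 200 kb there were 4 peaks of 4 genes. Counting all peaks within 500 kb of the 5 placed starts gave 6 peaks, among them those listed under Crnde and Pou5f2 and without 3 of the original 7. Leaving out repeats or merging peaks within 1 kb did not change the number of peaks or of genes with a peak among the 7, the median score, the median distance or the intergenic share. Leaving out repeats, an alternative chosen after seeing the data for the list of 37 genes, took its genes with a peak from 5 to 4, without Tbx5. With limits of 10, 50 and 100 kb, 0 of the 7 peaks had another peak of the same gene nearby, which only Nr2f1 and Nr2f2 could have had. The median score moved to at most 17.8 and the median distance to no less than 146 kb. No paired analysis was possible because the series has 1 library per group. The 7 scores were only 9 to 16 steps, and if 1 step is 1 tag the intervals of all 7 overlap.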
